A study of Drosophila melanogaster with 3 samples.

Results

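The genes B52, x16, SC35, SF2, Rsf1, tra2, Sxl, tra and fl(2)d encode SR-family splicing proteins and the splicing switch of sex determination in Drosophila melanogaster. These 9 genes, out of 13945 protein-coding genes on the 6 main chromosome arms, were chosen by name, and binding of the protein CG10543 was read at each of them. The data came from chromatin immunoprecipitation sequencing (ChIP-seq) of whole embryos of both sexes pooled, 0 to 24 h old, in 3 biological replicates of 1 group. The transgenic line expresses CG10543 with GFP at its C-terminus, and, per the labels' description, chromatin was precipitated with an antibody against GFP; the labels' antibody entry names CG10543, the tagged protein. Whole embryos mix all tissues and both sexes, so a summit at a sex-determination gene cannot be assigned to female or male cells. The labels do not state whether the line also keeps an untagged CG10543.

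SR proteins bind RNA and carry stretches rich in arginine and serine through which they recruit the splicing machinery to exons. Sex in the fly is set by a chain of splicing choices: Sxl protein, made in females, directs the splicing of its own RNA and of tra RNA, and Tra with Tra2 then directs the female splicing of dsx and fru. Sxl has a promoter for its first expression in young female embryos, and an upstream promoter that both sexes use later. fl(2)d encodes a subunit of the complex that methylates adenosines in mRNA (m6A) and is needed for female splicing of Sxl.

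A gene was counted as holding a summit when a summit of the optimal IDR set lay inside it or within 5000 bp of one of its transcription start sites (TSSs). IDR, the irreproducible discovery rate, selects regions by how well their ranks repeat between replicates, and the set had 7545 peaks on dm6. Not every peak in it had a counterpart in all 3 replicates. A peak's rank follows its deposited signal, with 1 the strongest, and ranks in a replicate list run to 30000. Replicate 1 listed 12593 regions at a q-value below 0.01, replicate 2 listed 7016 and replicate 3 listed 7612. A replicate was counted as having the same region when its summit lay within 200 bp. Matched IDR summits had median ranks of 3815.5, 3850 and 3834.5 in replicates 1, 2 and 3. Depth is unknown, as read counts were not part of the files.

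Of the 9 genes, 7 held an IDR summit: B52, x16, SC35, SF2, Sxl, tra and fl(2)d. The same rule was met by 52.6% of all protein-coding genes (95% interval 51.8 to 53.4%, exact Clopper-Pearson, for counting only). Rsf1 and tra2 held none. Within 500 bp of a TSS, 5 of the 9 genes (B52, SC35, SF2, Sxl and fl(2)d) had a summit, against 27.9% of all protein-coding genes. With replicate 1, 2 or 3 left out, only IDR peaks matched among the 7545 strongest regions of both other replicates were kept. The IDR set itself still came from all 3 replicates, so this step could drop a gene but not add one. The number within 500 bp was then 4 without replicate 1 (B52, SC35, SF2 and Sxl), against 22.5% of all protein-coding genes. It was 3 without replicate 2 (SF2, Sxl and fl(2)d), against 19.3%, and 2 without replicate 3 (SF2 and Sxl), against 18.2%. With each summit given only to the protein-coding gene whose TSS is nearest, 4 of the 9 genes kept one, against 27.6%. These were B52, SC35, Sxl and fl(2)d, whereas the summits of x16, SF2 and tra were nearer to a neighbour's start. No test was made of these shares, since the genes were picked with earlier results in view.

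Together the 7 genes held 19 summits, 8 at intronic bases, 5 in annotated 5′ UTRs and 6 outside the gene. The median was 2 summits for the 9 genes, with a median gene length of 3591 bp, and 1 for all protein-coding genes, whose median length was 2166 bp. All 3 replicates had a region within 200 bp of 17 of the 19 summits, compared with 90.9% of the whole IDR set. The 2 exceptions were both at B52, where replicate 1 had no region. By the same matching in the strongest regions of the remaining replicates, the genes held 12 summits without replicate 1 and 11 without replicate 2 or without replicate 3.

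Several summits stood in close pairs. Of the 8 neighbouring summit pairs less than 1000 bp apart, 6 were spaced by 190 to 210 bp, which was so for 40.7% of such pairs in the whole IDR set. The smallest spacing anywhere in the set was 199 bp. The 2 summits of such a pair were therefore not read as separate sites. Keeping 1 summit for each run of overlapping intervals left 13 of the 19.

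**Figure D1:**
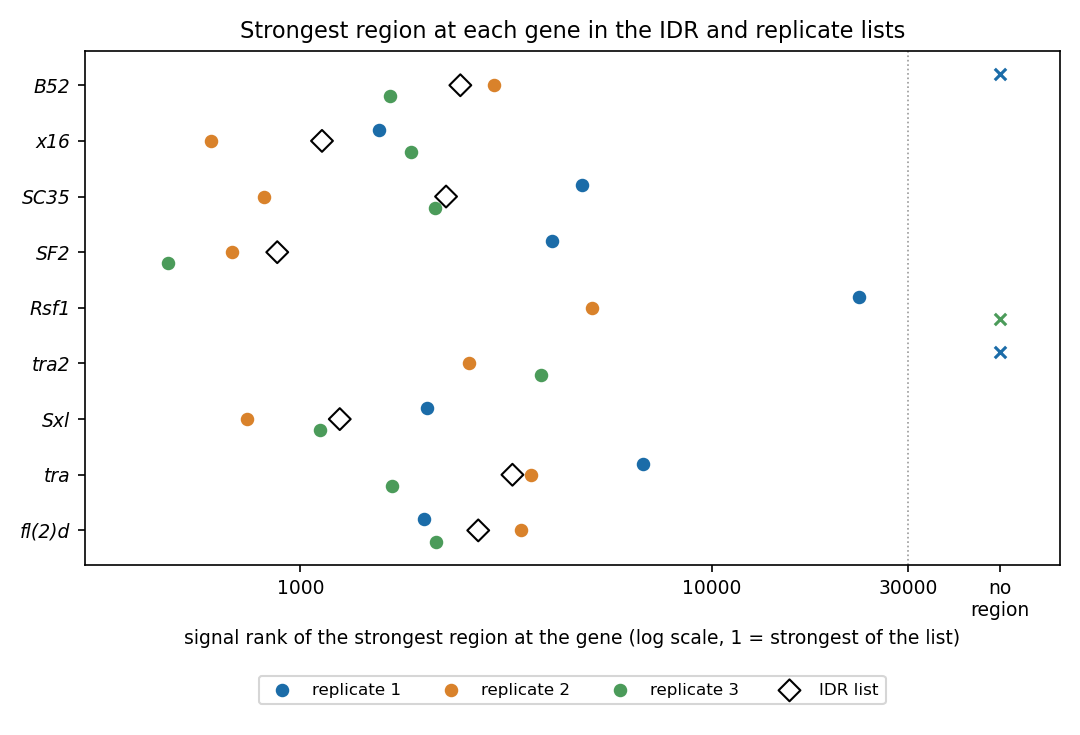
Signal rank of the strongest region under the rule at each of the 9 genes (log axis, 1 is the strongest). Points are the 3 replicates, diamonds the IDR list, and crosses at the right mark a replicate with no region at the gene. The points of a gene can be different places. At SC35 they lay 1938, 93 and 254 bp from a TSS in replicates 1, 2 and 3, and at fl(2)d 2030, 1927 and 64 bp. B52 and tra2 have no region in replicate 1, and Rsf1 has none in replicate 3.

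The site of the factor Dref, TATCGATA (DRE), stood within 100 bp of 4 of the 19 summits, at 4 different genes, whereas 176 of 7545 IDR windows of that length held it (2.33%). It is shown here because it was the rarest of the motifs found at more than 1 of the genes, a choice made after the values were seen. With 50 bp on each side it was found at 2 of the 19 summits, those of x16 and tra, and at 1.27% of all. Each sequence below comes from the 201 bp of dm6 centred on the summit, read on the gene's own strand, without annotated UTR bases. For B52 this leaves only the stretch upstream of the TSS, which does not reach the summit. The sequences are shown with the DRE and other searched motifs in capitals.
SF2, chr3R:16342056-16342256, minus strand: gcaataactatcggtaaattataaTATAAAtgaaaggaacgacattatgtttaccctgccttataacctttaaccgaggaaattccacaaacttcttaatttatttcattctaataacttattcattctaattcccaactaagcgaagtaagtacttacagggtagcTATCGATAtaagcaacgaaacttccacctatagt
x16, chr2L:6919079-6919279, minus strand: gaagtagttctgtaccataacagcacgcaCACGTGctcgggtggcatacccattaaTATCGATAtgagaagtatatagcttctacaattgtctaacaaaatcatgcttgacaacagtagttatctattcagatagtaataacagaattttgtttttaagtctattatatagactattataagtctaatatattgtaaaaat
B52, chr3R:13661242-13661310, plus strand: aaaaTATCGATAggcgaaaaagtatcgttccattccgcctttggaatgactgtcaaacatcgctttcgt
tra, chr3L:16588183-16588383, minus strand: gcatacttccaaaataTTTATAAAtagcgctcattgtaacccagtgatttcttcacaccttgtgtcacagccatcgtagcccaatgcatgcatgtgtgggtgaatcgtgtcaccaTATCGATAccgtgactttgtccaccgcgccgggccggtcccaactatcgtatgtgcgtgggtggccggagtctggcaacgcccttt

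The element lay 18 bp from the summit at tra, 41 bp at x16, 70 bp at SF2 and 92 bp at B52. At B52 and SF2 it was also close to the gene's own TSS, 61 and 98 bp away. In windows of 301 bp centred on each annotated protein-coding TSS, 7.08% of 19607 held it. A match of these letters is a description of the sequence and says nothing of which factor was bound.

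The other motifs were sought in the same windows, both strands, and 13 of the 19 held at least 1 of the 12, against 77.2% of all IDR windows. TATAAA, the TATA box, was in 6 windows (25.3% of all), GAGAG in 3 (30.5%), the CA repeat CACACACA in 3 (9.17%) and the T tract TTTTTTTT in 2 (10.8%). The GATA site TGATAA was in 1 window (17.8%), the E-box CACGTG in 1 (2.69%), the GC box GGGCGG in 1 (8.71%) and TCAGTT, part of the initiator, in 1 (13.9%). Motif 1 (GGTCACACT), the cAMP response element (TGACGTCA) and the Zelda site (CAGGTAG) were in no window here, and in 1.46%, 0.623% and 0.981% of all. Matches overlapped within repeats, so windows rather than matches were counted. The median GC content was 35.8% over the 19 windows, with a range of 23.4 to 51.2%, and 43.3% over all IDR windows.

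SF2 had the strongest summit of the 9 genes. It encodes the fly counterpart of the SR protein SRSF1 (FBgn0283477, 3R, 16338943 to 16341988, minus strand). Its only IDR summit, at 16342156, had a deposited pooled signal of 697 and rank 879 of 7545. The ranks were 4097, 684 and 477 in replicates 1, 2 and 3, a mean of 1753 ± 2033 (SD, n = 3). Replicate 1 stood apart as the lower one. The mean was 580.5 without it, 2287 without replicate 2 and 2390.5 without replicate 3. The summit lay in the interval between 2 genes that start 330 bp apart on opposite strands, 168 bp upstream of the SF2 TSS and 162 bp from that of pad, a zinc finger gene. Which of the 2 promoters it belongs to cannot be told apart at this distance.

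x16 had the best mean rank over the replicates. It encodes an SR protein related to SRSF7 (FBgn0028554, 2L, 6914301 to 6920210, minus strand). The summit at 6918980 had rank 1129 in the IDR set and ranks of 1557, 606 and 1858, a mean of 1340 ± 654 (SD, n = 3), all among the strongest 7545 regions of its list. It was intronic in x16, 1230 bp downstream of the x16 TSS, and only 237 bp from the TSS of nop5, a nested gene for a core protein of box C/D snoRNPs. Its 201 bp window had the lowest GC content of the 19, 23.4%. The second summit, at 6919179, 199 bp away, had rank 4562 and varied more, with ranks of 7039, 3057 and 21452.

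The replicates differed at the x16 start itself. The nearest region lay 993 bp from the TSS in replicate 1 at rank 4833, 96 bp in replicate 2 at rank 7815, and 128 bp in replicate 3 at rank 10120. No IDR summit lay within 1000 bp of this TSS, the nearest being at 1031 bp. By ranks over the 3 replicates, the genes with the profile most like the strongest x16 summit, among 3430 other protein-coding genes whose strongest IDR summit within 500 bp of a TSS was matched in all 3 replicates, were CG17726 (1910, 767 and 1731), HSPC300 (1610, 633 and 1349) and aru (1305, 760 and 2258). Their distances were 0.139, 0.141 and 0.151 on the log10 rank scale.

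SC35, the counterpart of SRSF2 (FBgn0265298, 2L, 12431075 to 12434665, minus strand), had 2 summits of almost equal rank, each next to a start site. The summit at 12434428 had rank 2260 and lay 237 bp inside SC35 and 24 bp from a TSS of eRF3, a translation termination factor gene whose start overlaps SC35 head to head. The one at 12434101 had rank 2289 and lay 63 bp upstream of the downstream TSS of SC35. Replicates 2 and 3 ranked the first at 913 and 2122, and replicate 1 at 8080, a mean of 3705 ± 3837 (SD, n = 3). This mean was 1517.5 without replicate 1, 5101 without replicate 2 and 4496.5 without replicate 3. For the second the ranks were 9114, 816 and 2251. At both sites replicate 2 ranked best and replicate 1 poorest. The sequence around the second is shown because it is the stretch just upstream of an SC35 start, with TATAAA and TGATAA matches in capitals. The TATAAA match lay 134 bp from this start and reads TTTATA on the gene's strand. The TGATAA match lay 73 bp from it.
SC35, chr2L:12434039-12434201, minus strand: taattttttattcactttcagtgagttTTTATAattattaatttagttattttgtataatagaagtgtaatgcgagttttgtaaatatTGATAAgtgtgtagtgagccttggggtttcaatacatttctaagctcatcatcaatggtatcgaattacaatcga

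B52, also known as SRp55 (FBgn0004587, 3R, 13661311 to 13666891, plus strand), had its summits at its own promoter. The stronger one, at 13661342, lay 31 bp downstream of the first TSS in the 5′ UTR and had rank 2448. Replicate 2 placed it at rank 2951 and replicate 3 at 1654. Replicate 1 had no region at the gene at all: its nearest one lay 12384 bp away. The other summit, at 13661541 and 47 bp from the second TSS, was near the bottom of the IDR set, at rank 7220, with ranks of 16758 in replicate 2 and 5214 in replicate 3. Without replicate 2 or without replicate 3 neither B52 nor SC35 held a summit.

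Both B52 and x16 lay head to head with a gene for an abundant RNA-binding protein of the hnRNP class. Hrb87F starts 780 bp from B52, and Hrb27C 494 bp from x16. Under the 5000 bp rule both neighbours shared the summits described above, at 811 and 1724 bp from their own TSSs for the stronger one of each. In all, 6 of the 9 genes (B52, x16, SC35, SF2, Rsf1 and fl(2)d) had a protein-coding TSS on the opposite strand within 1000 bp upstream, or overlapping by under 500 bp, as did 35.9% of protein-coding genes. Of these 6, 4 had a summit within 500 bp of a TSS, and 43.1% of all genes so arranged did.

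Rsf1, a small protein that counteracts SR proteins (FBgn0011305, 2L, 10261795 to 10263554, minus strand), had no IDR summit nearer than 43234 bp. The replicates did not share a region there. Replicate 2 had one at rank 5119, 2243 bp from the Rsf1 TSS. Replicate 1 had only weak regions, the strongest at rank 22708, and replicate 3 had none under the rule, its nearest lying 33597 bp away.

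**Figure D2:**
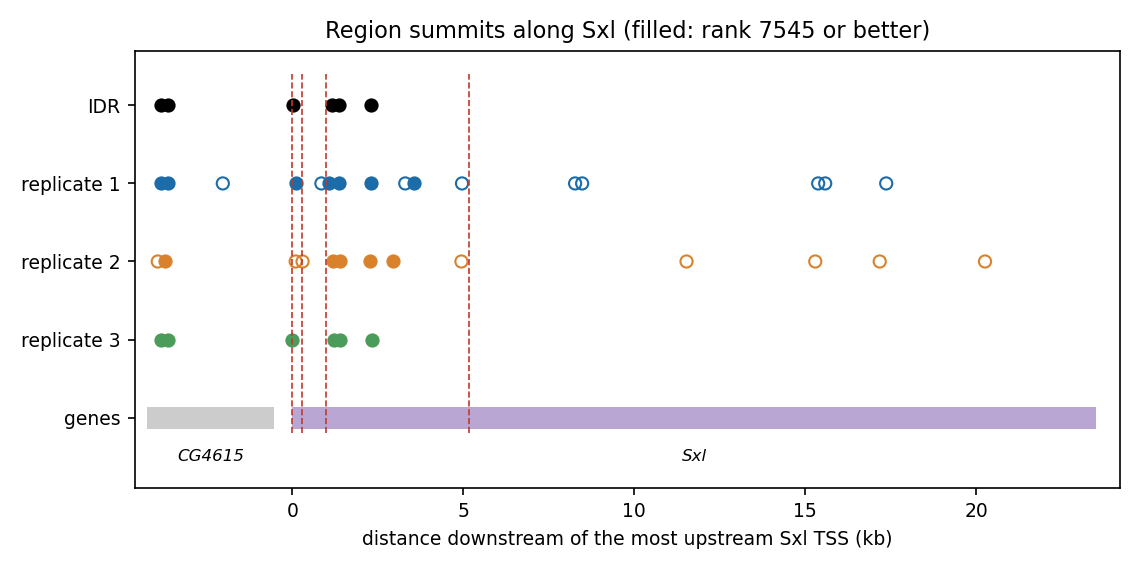
Summits along Sxl in the IDR set and in each replicate, by distance downstream of the most upstream TSS (kb). Filled points rank 7545 or better in their list, open points lower, and dashed lines are the 4 annotated TSSs, and bars are the genes. The 6 IDR summits lie between 3845 bp upstream and 2306 bp downstream, and none is near the TSS at 5170 bp.

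Sxl had the most summits of the 9 genes. It encodes the RNA-binding master switch of female development (FBgn0264270, X, 7074550 to 7098053, minus strand) and has 4 annotated TSSs and 25 transcripts. It held 6 IDR summits, and at least as many were found at 2.45% of protein-coding genes. The summits behind both values include close pairs, at Sxl those spaced by 200 and 208 bp, which were not read as separate sites. Only 4 of the 6 had an Sxl TSS as the nearest. Sxl spans 23504 bp, more than any of the other 8 genes, and longer genes have more room for summits. The 6 fell in 3 places: 2 upstream of the gene, 1 at the most upstream TSS, and 3 in the first part of the gene.

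The strongest was the intronic summit at 7096703, 363 bp from a TSS, with rank 1247 and replicate ranks of 4038, 744 and 1118. The mean was 1967 ± 1804 (SD, n = 3). It was 931 without replicate 1, 2578 without replicate 2 and 2391 without replicate 3. The intronic summit at 7095747, 1319 bp from the nearest TSS, was the steadiest of the 17 summits matched in all 3 replicates. It had rank 1669 in the IDR set and 2026, 1687 and 2116 in the replicates, a mean of 1943 ± 226 (SD, n = 3). The summit at 7096903, 200 bp from the strongest, had rank 5715. Sequences of the strongest and of the steadiest are shown as the 2 main Sxl sites, with the one searched motif they hold, TCAGTT, in capitals.
Sxl summit 7096703, chrX:7096603-7096803, minus strand: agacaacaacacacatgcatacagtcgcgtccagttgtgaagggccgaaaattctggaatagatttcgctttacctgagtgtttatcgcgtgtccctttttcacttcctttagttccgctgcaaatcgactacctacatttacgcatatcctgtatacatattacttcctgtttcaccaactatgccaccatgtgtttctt
Sxl summit 7095747, chrX:7095647-7095847, minus strand: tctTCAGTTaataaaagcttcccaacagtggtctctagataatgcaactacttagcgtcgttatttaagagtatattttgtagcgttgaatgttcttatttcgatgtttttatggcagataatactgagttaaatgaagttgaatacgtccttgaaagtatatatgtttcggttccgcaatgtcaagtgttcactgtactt

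The start sites of Sxl differed in what lay beside them. For the TSSs 285 and 987 bp downstream of the most upstream one, the nearest IDR summits were 258 and 163 bp away. All 3 replicates had a region within 309 bp of the former and 216 bp of the latter. At the most upstream TSS the summit at 7098026 was 27 bp away, but it was weak and uneven, with rank 5226 in the IDR set and 2912, 18284 and 5958 in the replicates. The most downstream TSS, 5170 bp further into the gene, had no IDR summit within 2864 bp. There replicates 1 and 2 had regions 209 and 226 bp away at ranks 10698 and 13529, and the nearest of replicate 3 was 2828 bp off. The annotation used does not name the early and the late promoter. Upstream of the gene, the summits at 7101690 (rank 2044, mean replicate rank 2358 ± 1199, SD, n = 3) and 7101898 (rank 3203) were 610 and 402 bp from the TSS of CG4615 and 3637 and 3845 bp from that of Sxl. In replicates 1 and 2 Sxl also had scattered regions farther into the gene, the strongest of them beyond 5170 bp being rank 7901 in replicate 1, and replicate 3 had only 6 regions, each beside an IDR summit.

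tra, which encodes an SR-type protein without an RNA-binding domain of its own (FBgn0003741, 3L, 16590059 to 16591050, minus strand), held summits only through the distance rule. Both lay past its 3′ end, 2767 and 2568 bp from its TSS and 192 and 7 bp from a TSS of l(3)73Ah, the gene that faces it tail to tail. The stronger, at 16588283, had rank 3276 and replicate ranks of 6785, 3635 and 1671, a mean of 4030 ± 2580 (SD, n = 3). This mean was 2653 without replicate 1, 4228 without replicate 2 and 5210 without replicate 3. The other, at 16588482, had rank 5476, and both matched the same region of replicate 3. At the tra TSS the nearest region of any replicate was 411 bp away, at rank 25228 in replicate 3. With the distance set to 2000 bp, tra no longer held a summit.

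tra2, which encodes the RNA-binding partner of Tra (FBgn0003742, 2R, 14602004 to 14604337, minus strand), had no IDR summit nearer than 14438 bp. Replicate 2 had a region at rank 2565 and replicate 3 one at rank 3841, 1181 and 1187 bp from the tra2 TSS and 221 and 227 bp from the TSS of CG12868. Replicate 3 also had a region 6 bp from the most upstream tra2 TSS, at rank 7564. Replicate 1 had no region within 12182 bp of a tra2 TSS, and the nearest region of the pooled list was the IDR summit 14438 bp away.

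fl(2)d, the counterpart of the mammalian methyltransferase subunit WTAP (FBgn0000662, 2R, 13819624 to 13824553, minus strand), held 4 summits. The strongest was intronic, at 13822524, 2029 bp into the gene, with its own TSS as the nearest protein-coding one and rank 2706. Its replicate ranks were 2002, 3439 and 4984, a mean of 3475 ± 1491 (SD, n = 3). The replicate 2 region lay 102 bp away and was also the match of the summit at 13822727, 101 bp from it. The summit at 13824543, 10 bp from the TSS, had rank 3531 and ranks of 4172, 7954 and 2139. These 2 sites differed in which replicate was highest, replicate 1 for the intron and replicate 3 for the start. The remaining summits, at 13822727 and 13826516, were weaker, at ranks 6487 and 6903, and that at 13826516 lay 145 bp from a TSS of CG6329.

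**Figure D3:**
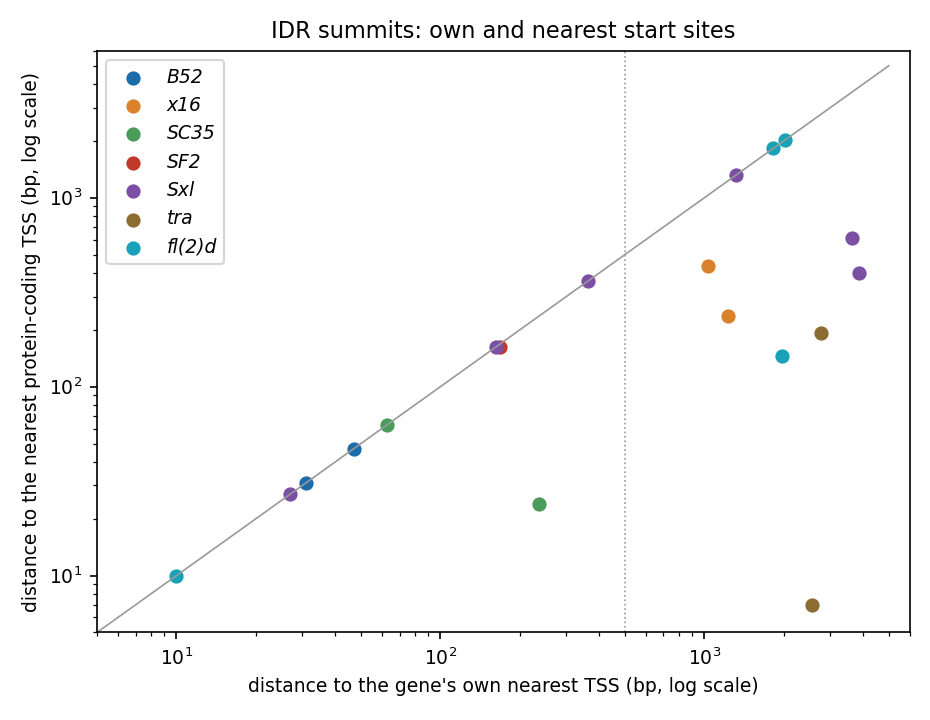
Distance of each of the 19 IDR summits to the nearest TSS of its own gene (x) and to the nearest protein-coding TSS (y), both in bp on log axes. Points on the diagonal have their own gene's TSS as the nearest. Both summits of x16 and of tra, 2 of Sxl and 1 each of SC35 and fl(2)d lie well below it, that of SF2 just below, and the dotted line marks 500 bp from the own TSS.

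Ordered by their strongest summit, the genes ran SF2, x16, Sxl, SC35, B52, fl(2)d and tra. Each of the 6 pairs of neighbours in this order had overlapping ranges of replicate ranks, so no step in it exceeded the spread between replicates. Of the 7 strongest summits, 5 had their poorest rank in replicate 1 (SF2, Sxl, SC35, B52 and tra), 2 in replicate 3 (x16 and fl(2)d) and 0 in replicate 2. Of the 6861 IDR summits matched in all 3 replicates, replicate 1 gave the poorest rank for 39.9%, replicate 2 for 31.2% and replicate 3 for 29.0%. For B52 the replicate 1 rank is that of a region 12384 bp away, outside the gene. B52 is therefore in the 5 of 7 but not among the 6861 matched summits, so the sets are not alike.

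Taking the 7545 highest-ranked regions of each replicate in place of the IDR set, replicate 1 gave a region to 6 of the 9 genes, against 48.9% of all protein-coding genes. In replicate 2 it was 9 of 9, against 53.7%, and in replicate 3 it was 8 of 9, against 55.3%. The 3 genes missing in replicate 1 were B52, Rsf1 and tra2, and the one missing in replicate 3 was Rsf1. The farthest summit that the limit of 5000 bp took in was 3845 bp from a TSS, at Sxl, and the nearest one it left out was 6083 bp away, at SC35.

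**Figure D4:**
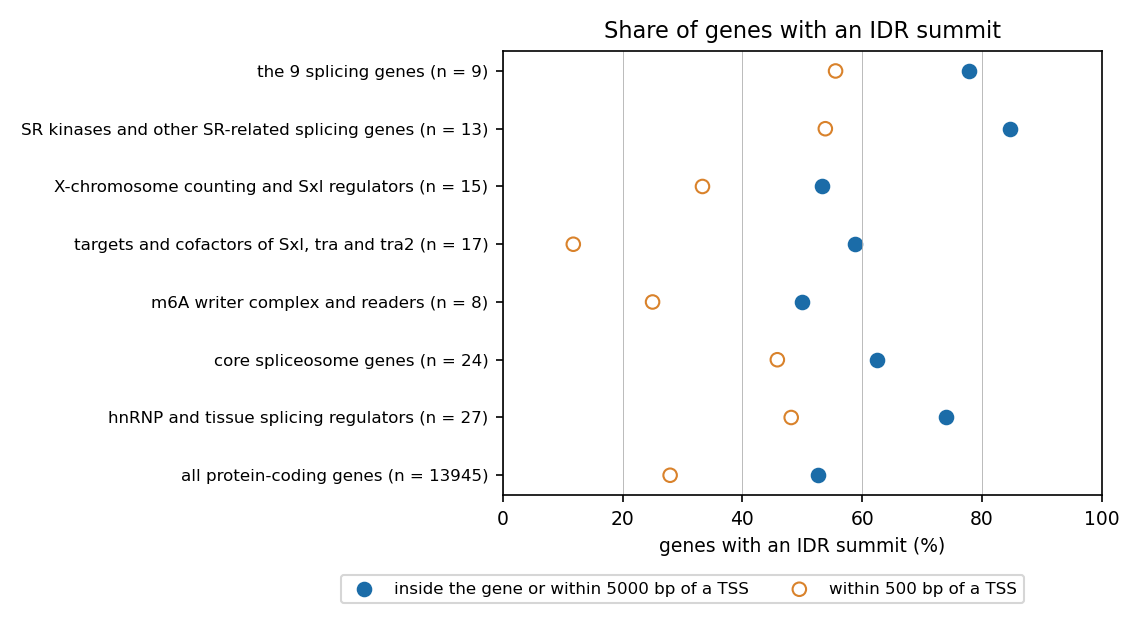
Share of genes with an IDR summit inside the gene or within 5000 bp of a TSS (filled) and within 500 bp of a TSS (open), for the 9 genes, 6 lists of related genes and all protein-coding genes. Filled points run from 4 of 8 genes for the m6A list to 84.6% for SR kinases and SR-related genes, and all protein-coding genes stand at 52.6%. The list at 84.6% also holds Srp54k, a signal recognition particle gene.

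Genes that act with the 9 were counted by the same rule. The shares with a summit were 84.6% for SR-related genes, 74.1% for hnRNP and tissue-specific regulators and 62.5% for core spliceosome genes. All protein-coding genes stood at 52.6%. Of the 13 genes listed for SR kinases and other SR-related proteins, 11 held a summit. Within 500 bp of a TSS 7 did, against 27.9% of all protein-coding genes. The SR kinase genes Doa and SRPK were among them, with strongest ranks of 727 and 1299. Both counts include Srp54k (rank 2574), which encodes a subunit of the signal recognition particle and is not a splicing gene. The strongest summits of this list, at Srrm234 (rank 197) and Srrm1 (rank 271), lay 71 and 9 bp from the TSSs of the ribosomal protein genes RpL23A and RpS4. Of 27 hnRNP and tissue-specific splicing regulators, 20 held a summit, led by elav, a neuronal RNA-binding protein gene (rank 23), and mbl, the muscleblind gene (rank 309). This count includes Hrb87F and Hrb27C through the summits of B52 and x16. It also includes Cbp20 (rank 2041) and tsu (rank 3138), which are neither hnRNP genes nor tissue-specific splicing regulators. Of 24 core spliceosome genes, 15 did, with Sf3b3 at rank 460 and Prp3 at rank 467. The Sf3b3 summit lay 4326 bp from its own TSS and 110 bp from that of CG13901. The Prp3 summit lay 3313 bp from its own and 2423 bp from that of Su(Tpl). With the nearest TSS only, 6 of the 13, 12 of the 27 and 7 of the 24 genes kept a summit. The share of all protein-coding genes was then 27.6%.

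Genes above and below Sxl and tra in the pathway were counted as well. Of 15 genes that count X chromosomes or regulate Sxl, 8 held a summit, led by the corepressor gene Sin3A (rank 153) and by Stat92E, the transcription factor of JAK/STAT signalling (rank 384). The X-linked signal genes upd1 and run had none, and sisA had 1 at rank 3627. Of 17 targets and cofactors of Sxl, tra and tra2, 10 held a summit and 2 (11.8%) within 500 bp of a TSS, where the share of all protein-coding genes was 27.9%. Strongest were ix (rank 809), a cofactor of Dsx, and the yolk protein gene Yp3 (rank 872). dsx had no summit under the rule, while fru had 5, the strongest at rank 1478, and 0 within 500 bp of a TSS. These counts were not adjusted for gene length. Of 8 genes of the m6A machinery, 4 held one, with nito at rank 1111, Mettl14 at 1436, Hakai at 1713 and Mettl3 at 6660. Several of these summits were nearest to another gene's TSS. With the nearest TSS only, 5 of the 15, 3 of the 17 and 1 of the 8 genes kept a summit. The share of all protein-coding genes was then 27.6%. The Stat92E summit lay 3628 bp from its own TSS and 1530 bp from that of DPCoAC, and the ix summit 4563 bp from its own and 1984 bp from that of CG13204. That of Yp3 lay 135 bp from rdgB, that of nito 205 bp from CG2915 and that of Mettl14 66 bp from CG7810. In replicate 1 the region nearest to the Mettl14 summit was 6110 bp away. These lists are short, were drawn up with earlier results known, and were not tested.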

How the data were processed

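ChIP-seq regions of 3 biological replicates (CG10543-eGFP embryos, 0 to 24 h) were read from the dm6 lists. Per the labels, chromatin was sonicated to 200 to 800 bp. For each region the authors deposited a signal value and a −log10 q-value. The replicate lists and a pooled list hold 30000 regions each and, per the file headers of the text files deposited with them, derive from 1 control alignment besides the sample's own; the optimal IDR set came from these lists. For the aligner and peak caller the name is not given in the sources used here. Lists on dm3 were not used. No depth is known.

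Summits were column 2 plus column 10, written 1-based. Genes and TSSs came from Ensembl release 115 and sequence from RefSeq Release 6, both in dm6 coordinates. Of the annotated start codons, 99.9% read ATG in this sequence. Signal was ranked within a list only. Shares carry exact Clopper-Pearson 95% intervals, for counting only. No hypothesis test was run. The assignment of summits to genes was tested on simulated data first. Of the symbols in the 6 lists of related genes, 10 had no match among protein-coding genes and were left out. The genes named were the 9, the 2 of each related list with the strongest summit, the nearest neighbours and the 3 most alike in rank. Doa, SRPK, Srp54k, upd1, run, sisA, dsx, fru, Hakai, Mettl3, Hrb87F, Hrb27C, Cbp20 and tsu were added after their values were seen. Members and lists were chosen with earlier results of these data known. The labels call the replicates biological and do not describe the collections. Python 3.11.15, pandas 2.3.3, numpy 2.4.6 and scipy 1.17.1 were used. The neighbour of 1 region is not reported here.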

Additional observations from a re-analysis of the deposited data

How the results depend on the processing

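The number of the 9 genes with an IDR summit was 7, between 5 and 7 when 1 replicate was left out, and 4 with the nearest TSS only. It was 6 with a TSS distance of 2000 or 500 bp, and 7 among peaks of rank 3772 or better. Their 19 summits became 10 with the nearest TSS only, 12 at rank 3772 or better and 11 to 12 with 1 replicate left out. The share of all protein-coding genes, 52.6%, moved with the same choices. It was 40.2 to 45.4% with 1 replicate left out, 38.4% with a distance of 2000 bp, 31.6% with 500 bp, 36.9% at rank 3772 or better and 27.6% with the nearest TSS only. The 5 genes with a summit within 500 bp of a TSS became 2 to 4 with 1 replicate left out, and the share of all genes there was 17.6% at rank 3772 or better and 18.2 to 22.5% with 1 replicate left out. Leaving out a replicate kept IDR peaks matched among the strongest 7545 regions of both other replicates, which is fewer peaks by construction. The IDR set still rested on all 3 replicates, so no gene could be gained. Matching in all 3 replicates held for 11 of the 19 summits within 100 bp and for 9 when only the strongest regions of each replicate counted. Ranked by −log10 q, the strongest summits of all 7 genes shared rank 1 with 6431 tied peaks, so that ranking could not order them. Windows with 1 or more of the motifs fell to 6 of 19 with 50 bp on each side, an alternative chosen after seeing the data. No paired analysis was possible because the study has 1 group. The unknown depth limits every statement on a missing region: it was not detected in that list, and binding there was not measured.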

Other observations

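x16, SC35 and tra2, 3 of the 9 genes, host genes of small nucleolar or small Cajal body RNAs on their own strand. These are snoRNA:nop5-x16-a in x16 (shared with the nested nop5), snoRNA:SC35-a and snoRNA:SC35-b in SC35, and a small Cajal body RNA gene in tra2. Of all protein-coding genes, 0.602% do. Of these 3, x16 and SC35 held an IDR summit and tra2 did not.

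The region near tra2 was strong in replicates 2 and 3 and had no counterpart in the pooled list. Among the 5671 regions of replicate 2 in its highest 7545 that replicate 3 shared within 200 bp, 81 (1.43%) had no pooled region within 500 bp, and for 74 of these replicate 1 had none either. For regions shared by replicates 1 and 3 the number without a pooled region was 6 of 5069, and for replicates 1 and 2 it was 13 of 4910. B52 was the opposite case, with no region in replicate 1 but a peak in the pooled list and the IDR set. The reason was not tested.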
